A study of Mus musculus with 4 samples.

Results

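SR proteins and heterogeneous nuclear ribonucleoproteins (hnRNPs) are the 2 large families of RNA-binding proteins that decide which exons of a pre-mRNA are kept. The set described here held the mouse protein-coding genes named Srsf with a number or Hnrnp, together with Tra2a, Tra2b, Srrm1, Srrm2, Srpk1, Srpk2, Ptbp1, Ptbp3, U2af1, U2af2, Celf1, Celf2, Mbnl1 and Mbnl2. A gene was kept if it had 10 or more counts in at least 2 libraries. Of 55487 gene IDs in the count table, 45 protein-coding genes matched by name, all 45 had enough counts, and all 45 were among the 19194 genes tested. They were 11 SR protein genes, 20 hnRNP genes and 14 genes of related regulators. A further 2 matching symbols, Hnrnpa1l2-ps and Hnrnpa1l2-ps2, are processed pseudogenes and were left out.

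The cells were group 2 innate lymphoid cells (ILC2s), lymphocytes without antigen receptors that secrete type 2 cytokines. They were sorted from the mouse colon and cultured with 4 cytokines, the growth and survival factors IL-2 and IL-7 together with IL-33 and IL-25, which activate ILC2s. The 2 control libraries came from cells without FK866, and the 2 FK866 libraries from cells given FK866 for 16 h. FK866 inhibits NAMPT, the enzyme that recycles nicotinamide into NAD+, and its dose, the mouse strain and the age of the animals are not given in the labels. No label says whether the replicates were separate cultures or animals, so a p-value here reflects no more than how far the libraries of a group lie apart, a spread that may be technical.

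SR proteins carry 1 or more RNA recognition motifs and a tail rich in arginine and serine. They bind exonic enhancers and recruit U1 and U2 small nuclear ribonucleoproteins to the neighbouring splice sites. The tail is phosphorylated by SRPK kinases, which promote import into the nucleus, and by CLK kinases, which release the proteins from nuclear speckles. Many hnRNPs bind intronic or exonic silencers and act against SR proteins. Several genes of both families keep their own level in check through alternative exons or introns that send part of their transcripts to nonsense-mediated decay (NMD). Activated lymphocytes are a known setting for such regulators, the best known case being the exons of the CD45 gene.

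Library totals were between 27617750 and 37841233 counts, of which 96.5% to 97.1% fell in protein-coding genes. In FK866 replicate 2, 22461 gene IDs reached 10 counts, while the remaining libraries had 17152 to 18667 such IDs. All 12 genes fixed as ILC2 markers were measured, among them Gata3 at between 698.6 and 1082 CPM (counts relative to library size, scaled by the TMM method) and Il1rl1, the IL-33 receptor, at between 157.4 and 307.4 CPM. Of the 12, 1 rose, Rora (from 337.3 and 374.6 to 1185 and 1128 CPM, log2 1.70), and 2 fell, Arg1 (log2 -1.33) and the type 2 cytokine gene Il13 (log2 -1.49). Of the 7 myeloid markers, 4 passed the filter on low counts and 1, Cd68, was called higher. Their summed level was 4.98 and 5.03 CPM in the controls and 13.9 and 11.2 CPM in FK866, with S100a8 and S100a9 at 0 in both FK866 libraries and in control replicate 2. Of the 4 B cell markers, 3 passed the filter and 0 were called, with a sum of 31.6 and 34.8 CPM in the controls and 19.2 and 25.2 CPM in FK866, nearly all of it Cd79b. Of the 6 markers of other innate lymphocytes, 4 passed and 0 were called, with sums of 274.3 and 159.3 CPM in the controls and 223.0 and 86.5 CPM in FK866, nearly all of it Il22. The 6 T cell markers summed to between 19.6 and 21.0 CPM in every library, and the 7 epithelial and stromal markers to between 197.6 and 251.4 CPM, with 0 called in either list. Most of the epithelial and stromal sum was Pecam1, at between 142.3 and 224.6 CPM, and most of the rest Epcam, while Krt8 had 0 in every library. The part of all these marker lists in the results below was not tested. In bulk RNA, fewer cells of a type and less RNA per cell cannot be told apart.

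Of the 45 splicing regulators, 14 fell with FK866 and 1 rose, and 30 did not pass (quasi-likelihood test of edgeR, p adjusted by Benjamini-Hochberg over all 19194 genes, threshold 0.05). The share that fell was 31.1%, against 7.89% of all genes tested, and the share that rose was 2.22%, against 5.31%. Abundant genes are called more often. Among protein-coding genes at a mean of at least 100 CPM, 17.2% fell and 9.74% rose, and of the 35 members at that level 13 fell (37.1%) and 1 rose. Of the 45 genes, 28 had both FK866 libraries below both controls and 8 had both above. Among all genes tested, 29.3% lay below in this way and 28.4% above. Among the protein-coding genes at 100 CPM or more it was 43.4% and 28.7%, and of the 35 members at that level 23 lay below and 5 above. The median log2 fold change of FK866 over control was -0.38 for the members, 0.03 for all genes tested and -0.09 for the protein-coding genes at 100 CPM or more.

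Together the 45 genes took 14689 and 14645 CPM in the controls and 11643 and 10402 CPM in FK866. In FK866 libraries the sum was thus 0.752 times the control value. The 14 genes that fell accounted for most of this, with 7427 and 7355 CPM in the controls and 4463 and 3941 CPM in FK866. They were picked by their fall in these same libraries, so this split is a description only. The other 31 genes summed to 7262 and 7290 CPM in the controls and to 7180 and 6461 CPM in FK866. With the length and GC trend of each library removed, 16 members were called lower and 4 higher. The number lower was 10 without FK866 replicate 2 and 22 without control replicate 1.

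**Figure D1:**
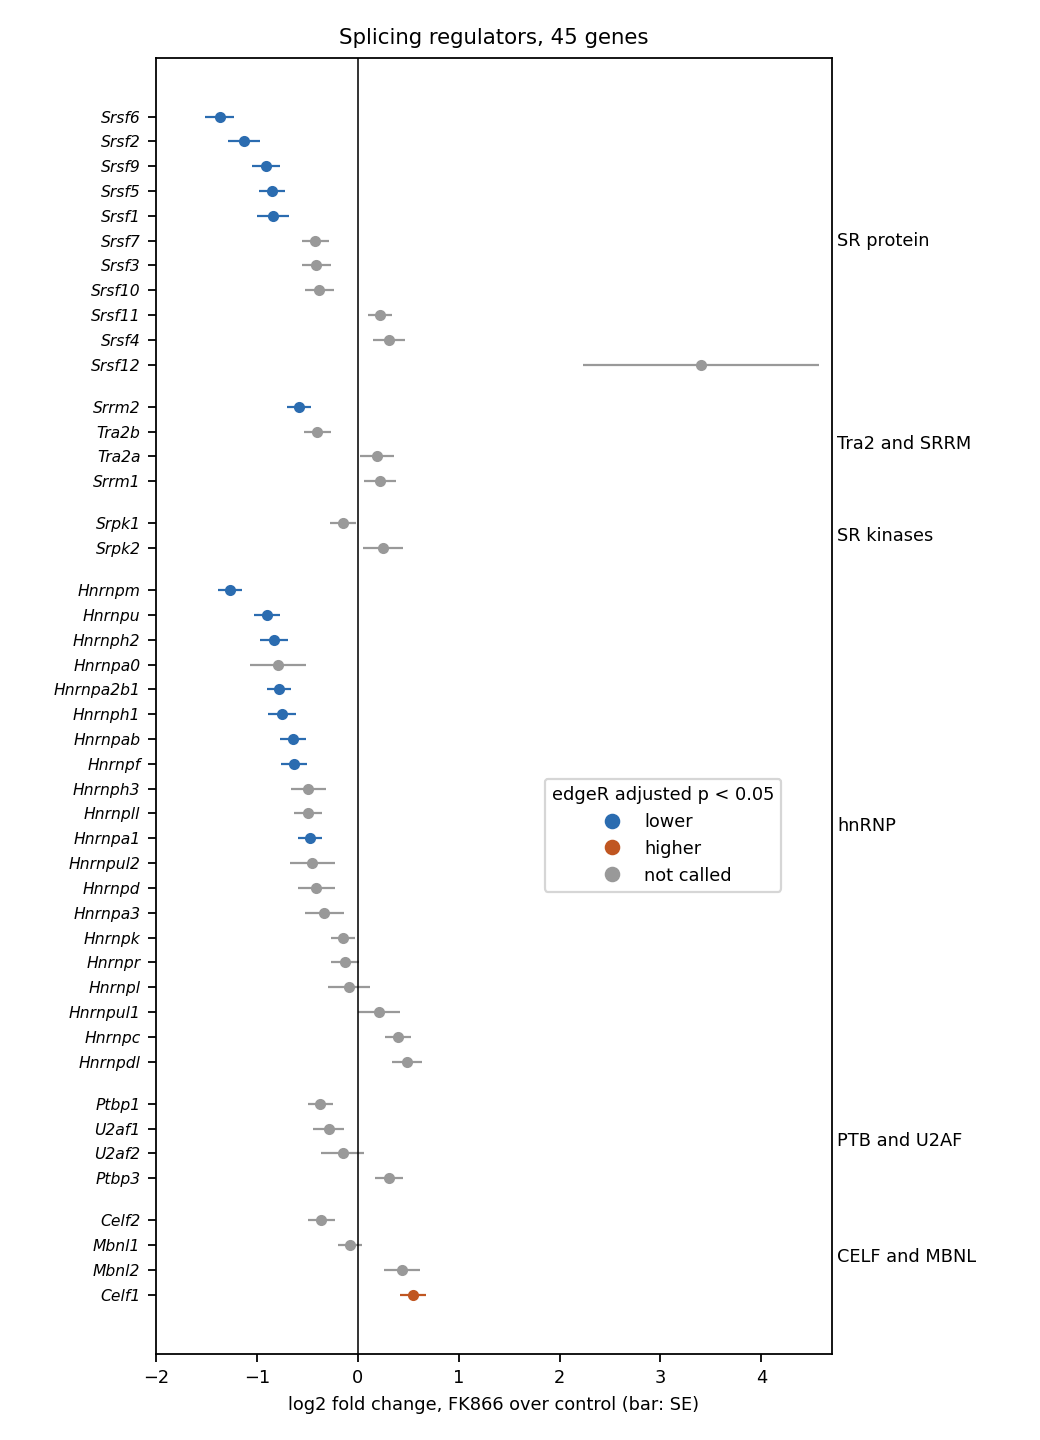
Log2 fold change of FK866 over control (x axis) for each of the 45 genes (y axis), grouped by role, with bars for the standard error of the fit. Blue points are the 14 genes that passed the test downward and the orange point is Celf1, which passed upward; Srsf12, at 3.40, rests on 4 control counts.

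The SR protein genes divided into a group that fell and a group that did not pass. Of 11 genes, 5 fell (45.5%) and 0 rose, with a median log2 fold change of -0.42. The share that fell was 7.89% for all genes tested and 17.2% for protein-coding genes at 100 CPM or more. Their summed level was 3189 and 3717 CPM in the controls and 2370 and 2205 CPM in FK866. In none of the 11 did the control and FK866 libraries overlap, with 8 genes lower and 3 higher in both FK866 libraries. Such separation is common with 2 libraries per group. It was seen downward in 29.3% and upward in 28.4% of all genes tested. For protein-coding genes at 100 CPM or more, these shares were 43.4% and 28.7%.

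Srsf6 (ENSMUSG00000016921, mm10 chromosome 2, 162931528 to 162937121, plus strand), which encodes a regulator of alternative exons, stood at 362.8 and 389.1 CPM in the controls and at 158.0 and 132.3 CPM in FK866. The controls were more than double either FK866 library, and the log2 fold change of -1.37 ± 0.14 (SE) was the deepest fall among the members (edgeR adjusted p = 0.0013). Srsf2 (ENSMUSG00000034120, chromosome 11, 116849901 to 116853094, minus strand) encodes the SR protein SC35. It was at 327.9 and 425.1 CPM in the controls and 187.7 and 156.5 CPM in FK866, a log2 fold change of -1.13 ± 0.16 (SE, edgeR adjusted p = 0.00491). The controls of Srsf2 lay further apart than those of Srsf6 but did not meet the FK866 values. For Srsf2, 25.3% of its exon sequence is shared with Mettl23 and Mfsd11 on the other strand. The libraries do not mark strand, so reads of the overlapping genes cannot be told apart there.

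Srsf1, the founding member of the family and a factor in both constitutive and alternative splicing, was at 282.5 and 371.0 CPM in the controls and 195.0 and 170.9 CPM in FK866. Its log2 fold change was -0.84 ± 0.16 (SE, edgeR adjusted p = 0.0127). Srsf5 went from 463.2 and 484.4 CPM to 285.9 and 240.9 CPM (log2 -0.85 ± 0.13, SE, edgeR adjusted p = 0.00651). The control values of Srsf5 were close together and well above both treated ones. Srsf9, whose product has a short arginine-serine tail, went from 137.3 and 120.8 CPM to 69.8 and 67.6 CPM (log2 -0.91 ± 0.14, SE, edgeR adjusted p = 0.00581). All 5 falls in this family were called under every one of the 13 alternative settings run.

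The most counted SR protein genes were not among those that passed. Srsf3, the smallest SR protein and, with Srsf7, an adaptor for export of mRNA through NXF1, was at 641.4 and 812.7 CPM in the controls and 546.5 and 544.5 CPM in FK866. Its log2 fold change was -0.41 ± 0.14 (SE, edgeR adjusted p = 0.0883). Srsf7 was at 519.8 and 600.0 CPM in the controls and 428.0 and 408.5 CPM in FK866, with a log2 fold change of -0.42 ± 0.13 (SE, edgeR adjusted p = 0.0628). Both genes were lower in both FK866 libraries, and Srsf7 was called lower under 7 of the 13 alternatives and Srsf3 under 3. Srsf10, a protein that acts as a repressor when dephosphorylated, had a log2 fold change of -0.38 (edgeR adjusted p = 0.12).

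Srsf11 and Srsf4 were slightly higher in both FK866 libraries without passing. Srsf11 was at 251.9 and 277.0 CPM in the controls and 311.8 and 303.2 CPM in FK866 (log2 0.22, edgeR adjusted p = 0.301). Srsf4 was at 29.4 and 28.2 CPM in the controls and 36.0 and 35.5 CPM in FK866 (log2 0.31, edgeR adjusted p = 0.256), and 43% of its exon sequence is also covered by Gm12992 on the other strand. Srsf12, a relative of Srsf10, was hardly detected, with 4 counts over both controls and 39 over both FK866 libraries. Relative to the library totals this is a ratio of 11.5, with an exact 95% interval of 4.14 to 44.2 that covers counting error only. The edgeR adjusted p of Srsf12 was 0.0916.

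The unequal shifts changed the make-up of the family's counts. Srsf6 made up 11.4% and 10.5% of SR protein gene counts in the controls and 6.67% and 6% in FK866. Srsf2 went from 10.3% and 11.4% to 7.92% and 7.10%. Srsf11 moved the other way, from 7.90% and 7.45% to 13.2% and 13.8%, and Srsf3 from 20.1% and 21.9% to 23.1% and 24.7%. For these 4 genes, as for every other SR protein gene, the control and FK866 shares did not overlap. The share of Srsf3 grew although its CPM was lower in both FK866 libraries. The shares are descriptions and were not tested.

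**Figure D2:**
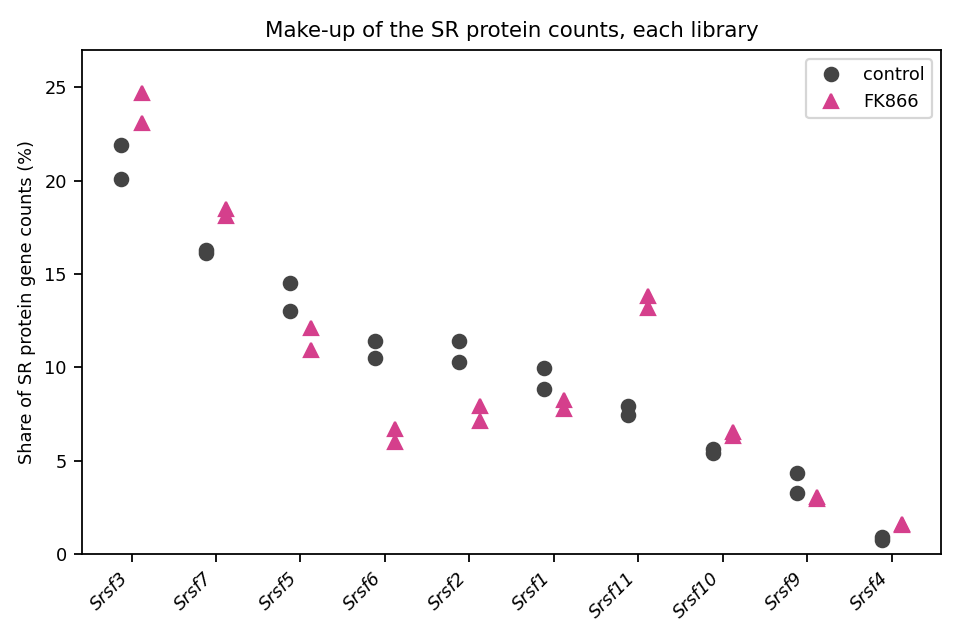
Share of all SR protein gene counts (y axis, percent) held by each SR protein gene (x axis) in each of the 2 control (circles) and 2 FK866 (triangles) libraries, without Srsf12. Srsf6 and Srsf2 hold smaller shares in both FK866 libraries, and Srsf11 larger ones, 13.2% and 13.8% against 7.90% and 7.45%.

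Among the SR-related coactivators and kinases, 1 of 6 genes fell, a share close to that of abundant genes. It was 17.2% for protein-coding genes at 100 CPM or more and 7.89% for all genes tested. Srrm2, which encodes a large scaffold protein of nuclear speckles, was at 438.0 and 451.9 CPM in the controls and 304.4 and 289.4 CPM in FK866. Its log2 fold change was -0.58 ± 0.12 (SE, edgeR adjusted p = 0.0165), and the call was lost without FK866 replicate 2 and with no filter on low counts. Its partner Srrm1 was at 116.8 and 132.5 CPM in the controls and 162.4 and 128.9 CPM in FK866, so the groups overlapped (log2 0.22, edgeR adjusted p = 0.397). The Tra2 proteins bind GAA-rich exonic enhancers. Tra2b was lower in both FK866 libraries, at 256.5 and 219.6 CPM against 312.2 and 317.6 CPM, without passing (log2 -0.40, edgeR adjusted p = 0.0796), and Tra2a had a log2 fold change of 0.19. Of the kinases that phosphorylate SR proteins in the cytoplasm, Srpk1 had a log2 fold change of -0.15 ± 0.13 (SE) and Srpk2 of 0.25 ± 0.20 (SE), and neither passed (edgeR adjusted p = 0.508 and 0.487).

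Of the 20 hnRNP genes, 8 fell (40%) and 0 rose, with a median log2 fold change of -0.48. Among protein-coding genes at 100 CPM or more, 17.2% fell and the median was -0.09, and among all genes tested 7.89% fell. Their summed level was 8783 and 8230 CPM in the controls and 6701 and 5862 CPM in FK866. The genes that fell were Hnrnpm, Hnrnpu, Hnrnph1, Hnrnph2, Hnrnpf, Hnrnpa2b1, Hnrnpab and Hnrnpa1.

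Hnrnpm (ENSMUSG00000059208, chromosome 17, 33646233 to 33686860, minus strand), a splicing regulator that binds GU-rich sequence, had the deepest fall of the family. It was at 670.4 and 662.3 CPM in the controls and 287.9 and 265.4 CPM in FK866, and each group was tight. The log2 fold change was -1.27 ± 0.12 (SE, edgeR adjusted p = 0.00114), and 14.7% of its exon bases overlap a neighbouring gene on the same strand. Hnrnpu (ENSMUSG00000039630, chromosome 1, 178321108 to 178337797, minus strand) encodes scaffold attachment factor A, which binds both chromatin and nascent RNA. It was at 1277 and 1173 CPM in the controls and 710.5 and 603.5 CPM in FK866 (log2 -0.90 ± 0.13, SE, edgeR adjusted p = 0.00464). All 4 values lay high on the scale, so counting error was small for this gene.

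Among the hnRNPs, the A1 and A2/B1 proteins package nascent transcripts and compete with SR proteins for exon choice. Hnrnpa2b1 went from 1053 and 1007 CPM to 627.4 and 570.3 CPM (log2 -0.78 ± 0.12, SE, edgeR adjusted p = 0.00574). Hnrnpab went from 631.0 and 584.6 CPM to 422.2 and 357.9 CPM (log2 -0.64 ± 0.13, SE, edgeR adjusted p = 0.0168). Both groups were separate for each gene, though the FK866 libraries of Hnrnpab lay further apart than its controls. Hnrnpa1, the best known antagonist of Srsf1, went from 707.3 and 670.4 CPM to 521.4 and 472.8 CPM (log2 -0.47 ± 0.12, SE, edgeR adjusted p = 0.0363). Reads of Hnrnpa1 may be shared with its processed pseudogenes, and 29.1% of the exon bases of Hnrnpab overlap Phykpl on the other strand. Hnrnpa0 (log2 -0.79, edgeR adjusted p = 0.101) and Hnrnpa3 (log2 -0.33, edgeR adjusted p = 0.309) did not pass, the first at between 8.18 and 20.1 CPM.

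The F and H proteins recognise runs of G near splice sites. Hnrnph1 went from 195.8 and 229.5 CPM to 128.5 and 124.7 CPM (log2 -0.75 ± 0.14, SE, edgeR adjusted p = 0.0105). Hnrnph2, a closely similar gene on chromosome X, went from 148.4 and 132.1 CPM to 84.5 and 72.8 CPM (log2 -0.83 ± 0.14, SE, edgeR adjusted p = 0.00862). Reads may be split between these near-identical genes, and both were lower by a like amount. Hnrnpf went from 732.3 and 653.7 CPM to 479.3 and 415.6 CPM (log2 -0.63 ± 0.13, SE, edgeR adjusted p = 0.0172), and 26.4% of its exon bases overlap antisense transcripts. Hnrnph3 was at 36.7 and 35.2 CPM in the controls and 26.3 and 24.6 CPM in FK866, without passing (log2 -0.49, edgeR adjusted p = 0.0872). Without FK866 replicate 2, the calls of Hnrnpf, Hnrnpab and Hnrnpa1 were lost, and that of Hnrnpa1 was also lost with no filter. The calls of Hnrnpm, Hnrnpu, Hnrnph1, Hnrnph2 and Hnrnpa2b1 held under all 13 alternatives.

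**Figure D3:**
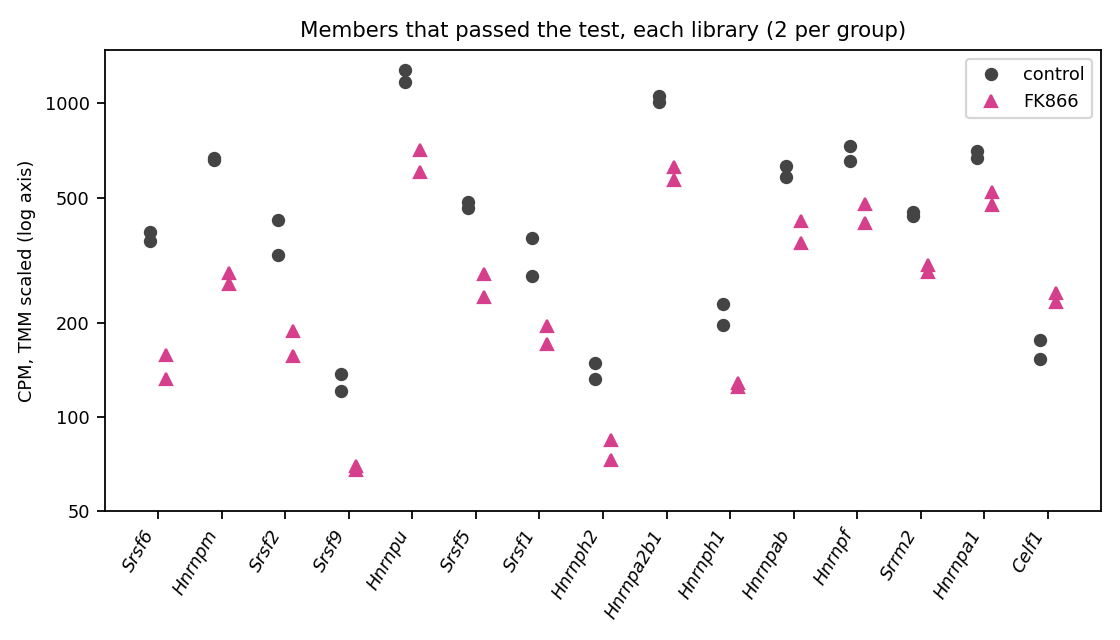
Expression (y axis, CPM on a log axis) of the 15 genes that passed the test (x axis, ordered by log2 fold change) in each of the 2 control (circles) and 2 FK866 (triangles) libraries. In each gene the groups do not overlap; 14 genes are lower in FK866 and Celf1 is higher.

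Other abundant hnRNP genes did not pass. Hnrnpk, which binds C-rich sequence, was at 1369 and 1308 CPM in the controls and 1265 and 1143 CPM in FK866 (log2 -0.15 ± 0.12, SE, edgeR adjusted p = 0.445). Hnrnpc, which binds uridine tracts and keeps cryptic exons out, was higher in both FK866 libraries, at 851.9 and 726.9 CPM against 589.3 and 609.8 CPM. Its log2 fold change of 0.40 ± 0.13 (SE) did not pass (edgeR adjusted p = 0.0741), but it was called higher under 8 of the 13 alternatives. Hnrnpdl was likewise higher in both, at 268.2 and 285.4 CPM against 174.5 and 221.0 CPM (log2 0.49, edgeR adjusted p = 0.0644), and was called higher under 6 alternatives. Hnrnpd, its paralogue, which also binds AU-rich elements in mRNA, had a log2 fold change of -0.41 (edgeR adjusted p = 0.17). Hnrnpl, Hnrnpr, Hnrnpul1 and Hnrnpul2 had log2 fold changes of -0.09, -0.13, 0.21 and -0.45, with adjusted p (edgeR) of 0.832, 0.619, 0.591 and 0.234.

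Hnrnpll, which switches CD45 exons in activated lymphocytes, was at 102.7 and 93.0 CPM in the controls and 72.6 and 67.0 CPM in FK866. Its log2 fold change of -0.49 ± 0.14 (SE) lay just outside the threshold (edgeR adjusted p = 0.0531). It was called lower under 10 of the 13 alternatives.

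None of the 4 genes of the polypyrimidine tract passed. U2af1 and U2af2 encode the subunits that recognise the 3′ splice site, and Ptbp1 and Ptbp3 encode repressors that compete for the same tract. Ptbp1 was lower in both FK866 libraries, at 282.4 and 269.4 CPM against 369.0 and 342.3 CPM (log2 -0.37 ± 0.12, SE, edgeR adjusted p = 0.0866), with 20.7% of its exon bases shared with antisense genes. Ptbp3 was higher in both, at 172.9 and 203.5 CPM against 142.4 and 160.5 CPM (log2 0.31, edgeR adjusted p = 0.19). The paralogues thus lay on opposite sides of 0, and their difference was not tested. U2af1 had a log2 fold change of -0.29 and U2af2 of -0.15, the latter with overlapping groups.

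CELF and MBNL proteins act on muscle-type alternative exons, often in opposite directions, and also bind mature mRNA. Celf1 (ENSMUSG00000005506, chromosome 2, 90940382 to 91019497, plus strand), which binds GU-rich elements and promotes mRNA decay, was the only member that rose. It went from 175.7 and 152.8 CPM to 249.0 and 232.6 CPM, with separate groups and a log2 fold change of 0.55 ± 0.13 (SE, edgeR adjusted p = 0.0297). The call was lost without FK866 replicate 1, without FK866 replicate 2 and with no filter. Celf2 was at 111.2 and 121.7 CPM in the controls and 94.0 and 87.9 CPM in FK866 (log2 -0.36, edgeR adjusted p = 0.12). Mbnl2 was at 33.2 and 26.7 CPM in the controls and 41.5 and 39.7 CPM in FK866 (log2 0.44, edgeR adjusted p = 0.144). Mbnl1, with the most counts of these 4 genes, had overlapping groups and a log2 fold change of -0.08 (edgeR adjusted p = 0.754).

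Levels of different genes were compared only after division by exon length, as CPM per kilobase of annotated exon. In the controls the highest were Hnrnpf at 240.3 and 214.5, Hnrnpab at 226.8 and 210.1, Hnrnpa1 at 224.3 and 212.6, and Hnrnpk at 211.7 and 202.2 CPM per kilobase. The ranges of Hnrnpf, Hnrnpab and Hnrnpa1 overlapped, and that of Hnrnpk overlapped only with Hnrnpab and lay below the other two. In FK866 the highest were Hnrnpk at 195.7 and 176.8 and Hnrnpc at 197.1 and 168.2 CPM per kilobase, which overlapped each other. Hnrnpa1 followed at 165.4 and 150.0 CPM per kilobase. Of the SR protein genes, Srsf7 was the highest, at 146.4 and 169.0 in the controls and 120.6 and 115.1 CPM per kilobase in FK866. Srsf2 stood at 110.9 and 143.7 in the controls and 63.5 and 52.9 CPM per kilobase in FK866.

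Many members have an annotated NMD transcript. In GENCODE M21, 30 of the 45 genes (66.7%) have at least 1 transcript classed as an NMD target, against 27.4% of all protein-coding genes tested and 32.5% of those at a mean of at least 100 CPM. Among the SR protein genes it is 9 of 11, and among the hnRNP genes 10 of 20. Of the 14 genes that fell, 9 have such a transcript, and of the other 31 genes 21 do. A gene with more annotated transcripts has more chances to hold an NMD target. Members have from 1 (Hnrnpa0) to 34 (Hnrnpk) annotated transcripts, and this number was not compared with that of other genes. A transcript with a retained intron is annotated for 35 of the 45 (77.8%), against 71.9% of protein-coding genes at 100 CPM or more. It is annotated for 8 of the 14 genes that fell (57.1%) and for 27 of the other 31 (87.1%), a difference that was not tested. The deposited counts are per gene, so productive transcripts and NMD targets are added together, and a change in splicing at a constant total cannot be seen in them.

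The promoters of 3 members that fell, Srsf6, Srsf2 and Hnrnpu, are shown beside that of Celf1, the member that rose, so that their letters can be compared. Each sequence is the 250 bases before the RefSeq transcription start on GRCm38.p6, 5′ to 3′ on the strand of the gene. Capitals mark the motifs searched, on both strands.
Srsf6, chr2:162931258-162931507, plus strand: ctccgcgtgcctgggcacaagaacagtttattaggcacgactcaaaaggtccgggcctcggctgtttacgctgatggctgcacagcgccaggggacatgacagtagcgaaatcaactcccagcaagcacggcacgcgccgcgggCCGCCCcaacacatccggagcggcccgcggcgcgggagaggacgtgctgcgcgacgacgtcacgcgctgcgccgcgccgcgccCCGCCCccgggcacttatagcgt
Srsf2, chr11:116853095-116853344, minus strand: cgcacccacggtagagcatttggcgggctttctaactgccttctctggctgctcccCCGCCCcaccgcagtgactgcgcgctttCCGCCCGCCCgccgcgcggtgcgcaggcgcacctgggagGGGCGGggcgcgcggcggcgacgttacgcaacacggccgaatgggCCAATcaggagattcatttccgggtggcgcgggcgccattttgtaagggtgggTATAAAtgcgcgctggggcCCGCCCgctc
Hnrnpu, chr1:178337816-178338065, minus strand: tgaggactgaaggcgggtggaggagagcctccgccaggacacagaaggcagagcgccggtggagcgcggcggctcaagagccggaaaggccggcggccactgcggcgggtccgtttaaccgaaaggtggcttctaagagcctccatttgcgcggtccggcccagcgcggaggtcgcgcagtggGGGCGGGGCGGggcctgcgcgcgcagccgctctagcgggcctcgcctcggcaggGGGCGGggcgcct
Celf1, chr2:90940147-90940396, plus strand: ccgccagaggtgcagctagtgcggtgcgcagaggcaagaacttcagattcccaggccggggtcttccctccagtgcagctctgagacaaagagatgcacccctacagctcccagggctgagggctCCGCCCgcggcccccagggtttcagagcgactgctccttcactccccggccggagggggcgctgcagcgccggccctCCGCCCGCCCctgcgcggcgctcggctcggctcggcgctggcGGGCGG

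The 8 motifs included the CCAAT box (CCAAT), the GC box (GGGCGG), the E-box (CACGTG) and an E2F core (TTTNNCGC). They also included the TATA box (TATAAA), the cAMP response element (TGACGTCA) and an ETS site (CCGGAAG). The last motif was a longer palindrome with CGCG at its centre. It was searched whole, so CGCG alone was not a match. All 4 promoters shown hold the GC box, and that of Srsf2 also has a CCAAT box and a TATA box. This rests on the genes shown. Hnrnpm (log2 -1.27), which fell more than Srsf2 and Hnrnpu, has a TATA box and no GC box. Its window lies 1402 bases from the GENCODE start. Hnrnpa2b1, Hnrnpf and Srrm2, which also fell, lack the GC box too, and the window of Srrm2 lies 12655 bases from that start. A RefSeq window was matched for 41 of the 45 members and for 11283 protein-coding genes tested. The GC box was in 30 of the 41 (73.2%) and in 55.6% of all 11283, and the CCAAT box in 21 (51.2%) and in 36.3%. Of the 14 genes that fell, 10 had the GC box, 6 the CCAAT box, 2 the TATA box and 2 the ETS site. Such counts in 14 genes were not tested. The E2F core was in 7 members (17.1%) against 6.65% of all, and in 1 of the 14 genes that fell, Srsf1. The E-box was in 4 members (9.76%) against 7.86%, and in 0 of the 14 that fell. The TATA box was in 5 members (12.2%) against 7.45%, and the ETS site in 6 (14.6%) against 12.9%. The cAMP response element was in 1 (2.44%) against 2.53%, and the whole palindrome around CGCG in 0 against 0.815%. The members' windows had a median GC content of 62.0%, against 59.2% for all. A motif match describes the letters of the window and is not evidence of binding.

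Other genes of RNA processing moved in both directions. The shares given for these lists can be read against the 7.89% of all genes tested that fell and the 5.31% that rose, or the 17.2% and 9.74% of protein-coding genes at 100 CPM or more. Of 70 genes of the major spliceosome, 16 fell (22.9%) and 3 rose (4.29%), with a median log2 fold change of -0.16. The tri-snRNP assembly factor gene Prpf31 fell from 271.3 and 234.3 CPM to 119.9 and 110.0 CPM, the SF3b subunit gene Phf5a by 0.98 and the U1 protein gene Snrpa by 0.94 on the log2 scale, while Prpf39, whose product works with U1, rose by 0.88. For Prpf31, 18.1% of the exon sequence is shared with Gm15927 on the other strand, and for Snrpa 11% with BC024978. Of 11 measured genes of the minor spliceosome, which removes a rare class of introns, 2 rose (Snrnp48, log2 1.01, and Armc7, log2 1.09) and 1 fell (Snrnp35, log2 -0.94). The number of major spliceosome genes that fell was 5 without FK866 replicate 2 and 27 without control replicate 1, and the call of Snrnp35 was lost without FK866 replicate 2.

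Some genes of the kinases that act on SR proteins inside the nucleus rose, and others did not pass. Clk1 went from 62.3 and 67.5 CPM to 276.7 and 270.8 CPM (log2 2.08 ± 0.13, SE, edgeR adjusted p = 0.000257) and Clk4 from 33.7 and 37.5 CPM to 140.0 and 138.6 CPM (log2 1.97). With Clk3 (log2 1.11) and the related kinase gene Dyrk1a (log2 0.83, a call lost without control replicate 1), 4 of 16 genes of other SR kinases, phosphatases and importins rose and 0 fell, with a median of 0.20. Clk2 had overlapping groups (log2 0.27, edgeR adjusted p = 0.375), and Prpf4b, Dyrk1b, Dyrk2 and Dyrk3 did not pass, with log2 fold changes of 0.35, 1.08, 0.51 and 0.05. The shares of this list that rose and fell were 25% and 0%. For Clk3, 15.2% of the exon bases overlap Edc3 on the other strand.

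Of 29 tested genes of speckle and other SR-related proteins, 6 rose (20.7%) and 2 fell (6.90%), with a median log2 fold change of 0.17. The number that rose was 2 without FK866 replicate 1, and the number that fell was 4 without FK866 replicate 1 or without control replicate 1. Rsrc2 rose by 1.15 and Rbm39, a cofactor of U2AF, by 0.70 on the log2 scale. Srrt, which links the cap-binding complex to RNA processing, and Zranb2 each had a log2 fold change of -1.12. Of 51 other splicing factors, 7 fell (13.7%) and 3 rose (5.88%), with a median of -0.01. Sfpq, a paraspeckle protein, went from 152.1 and 166.3 CPM to 71.8 and 57.4 CPM (log2 -1.30), and Rbm15, a factor of the m6A writer, rose by 1.41 on the log2 scale. Fubp1 had a log2 fold change of -1.13 and Syncrip, a relative of Hnrnpr, of -0.85. Without FK866 replicate 2, 3 of these factors fell and 1 rose, and the number that fell was 11 without control replicate 1, 12 without control replicate 2 and 12 without FK866 replicate 1.

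Of 21 genes of the exon junction complex and NMD, 4 fell (19.0%) and 3 rose (14.3%), with a median of -0.11. These shares lay above the 7.89% and 5.31% of all genes tested. They were nearer the 17.2% and 9.74% of protein-coding genes at 100 CPM or more, though listed genes such as Smg6 and Upf2 lay below that level. The NMD kinase gene Smg1 (log2 0.66) and the endonuclease gene Smg6 (0.77) rose, and the junction subunit gene Rbm8a (-0.53) and the termination factor gene Gspt1 (-0.65) fell. Without FK866 replicate 2 the calls of Smg6, Rbm8a and Gspt1 were lost, and without FK866 replicate 1 that of Smg1. Of 22 tested genes of mRNA export, 2 fell, the cap-binding gene Ncbp2 (log2 -1.23) and the adaptor gene Alyref (-0.84), and 1 rose, the export receptor gene Nxf1, from 236.7 and 222.9 CPM to 405.4 and 374.8 CPM (0.76). The list median was -0.24. The shares of 9.09% lower and 4.55% higher are near those of all genes tested, and the number that fell was 7 without control replicate 1 and 5 without control replicate 2.

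**Figure D4:**
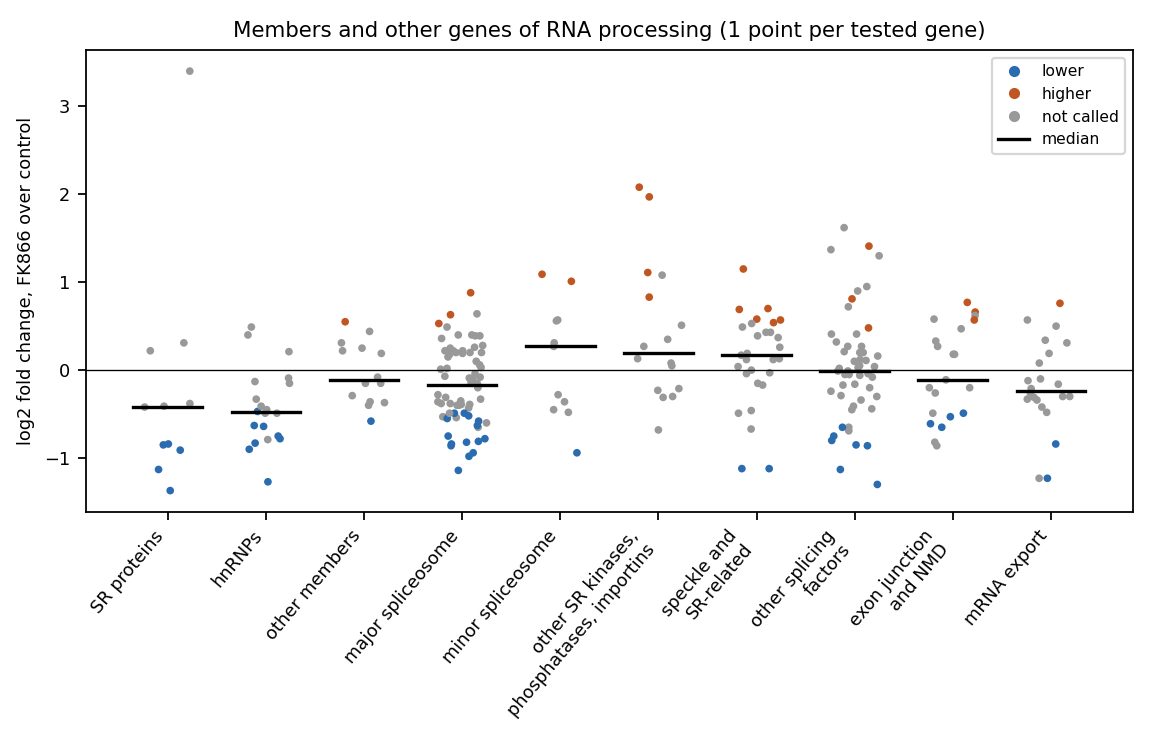
Log2 fold change of FK866 over control (y axis) for every tested gene of each list (x axis), 1 point per gene, with the median as a bar. The medians of the SR protein and hnRNP genes, -0.42 and -0.48, lie below those of the 7 lists of other RNA-processing genes, which range from -0.24 to 0.27. The remaining members form a column of their own. By role, their medians lie within that range, at -0.11 (Tra2 and SRRM), 0.05 (SRPK kinases), -0.22 (polypyrimidine tract and U2AF) and 0.18 (CELF and MBNL).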

How the data were processed

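RNA sequencing was done on 4 libraries of cultured colon ILC2s, 2 control and 2 FK866, grouped and numbered by their titles. Per the labels' protocols, RNA was taken with TRIzol, and SMART-Seq HT cDNA was made into paired-end Nextera XT libraries. Cutadapt 1.9 and HISAT2 2.2.1 with build mm10 are named in the submitters' processing notes. The authors deposited raw counts per Ensembl gene ID, a unit judged from their whole-number values. How reads were counted (program, annotation, strand, reads with several matches) is not given in the sources used here.

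Symbols, positions and exon lengths came from GENCODE M21 (mm10), and 55227 of 55487 IDs matched. All genes were fitted with edgeR 4.0.16 in R 4.3.3 (estimateDisp, glmQLFit, glmQLFTest, two-sided, TMM, treatment as the only term) after filterByExpr (min.count 10, min.total.count 15). The SE was derived from F as the absolute log2 fold change over its square root. Gene IDs without a symbol held at most 0.0494% of a library. Libraries of a group differed beyond sampling noise (chi-square per degree of freedom 35.8 for controls and 19.0 for FK866). The procedure was run on simulated counts of independent libraries, which cannot show how it performs where same-numbered libraries vary together. The members and lists were chosen with earlier results of these data known. Every member is named. Full statistics go to called members and to the 5 uncalled ones with the highest CPM per kilobase of exon (the SEs of Srpk1, Srpk2 and Hnrnpll and the values of Clk2, Prpf4b, Dyrk1b, Dyrk2 and Dyrk3 were added after they were seen), and from each list up to 4 called genes with the smallest adjusted p are given. The alternatives were DESeq2 1.42.0, other scalings and filters, a replicate block, removal of length and GC trends (splines with 5 degrees of freedom) and leaving out each library.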

Additional observations from a re-analysis of the deposited data

How the results depend on the processing

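Over 13 alternative settings, 12 planned and 1 chosen after seeing the data (library totals over all gene IDs before TMM), 10 of the 15 called members kept their call in every one, and no called member changed sign. The number of members lower stood at 14 and was 10 to 22 as each library was left out. With the replicate number as a block it was 25 (23 with the length and GC trend also removed). The number higher, 1 in the main fit, was 3 with DESeq2, 2 with upper quartile factors or with plain totals, 0 with no filter, 4 with the stricter filter (a mean of at least 100 counts) or with the trend removed, 5 with the block, 7 with block and trend, and 0 to 3 as each library was left out. The members' median was -0.53 to -0.29 as each library was left out, against -0.38.

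Over all genes, 1020 were higher and 1514 lower. The number higher was 1768 with the stricter filter, 1634 with the trend removed, 2197 with the replicate block, 2776 with block and trend, and 661 to 1457 with a library left out. The number lower was 3059 with the block, 2561 with block and trend, and 828 to 2462 with a library left out. The labels tie the replicate numbers to no animal, batch or day. Deviations from the group means of same-numbered libraries had a correlation of 0.45 over 8720 genes. A lone library was assumed to vary like those of the other group.

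Some uncalled members changed sign (log2 fold changes). Mbnl1 was 0.02 with the stricter filter. As each library was left out, Mbnl1 ranged from -0.25 to 0.02, Srpk2 from -0.07 to 0.50, Tra2a from -0.03 to 0.33, Srrm1 from -0.05 to 0.41, Hnrnpl from -0.52 to 0.19 (0.01 without control replicate 1), Hnrnpul1 from -0.10 to 0.43 (-0.06 without control replicate 2) and U2af2 from -0.62 to 0.16. Calls per list ranged, over the 13 alternatives, from 5 to 28 lower and 1 to 17 higher for the major spliceosome, 0 to 3 and 2 to 5 for the minor spliceosome, 0 to 2 and 3 to 8 for the SR kinases, 2 to 5 and 2 to 11 for speckle genes, 3 to 12 and 1 to 7 for other splicing factors, 0 to 6 and 1 to 7 for the exon junction and NMD, and 2 to 7 and 1 to 5 for mRNA export. The cause of these changes was not tested. Depth limits Srsf12, with 4 control counts.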
